A study of Sus scrofa with 70 samples.

Results

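The epididymis-only isoforms of the boar were the PacBio isoforms with at least 1 full-length read in the epididymis (Epi) library of the Banna mini-pig inbred line (BMI), at least 1 in that of the Diannan small-ear pig (DSE), and 0 reads in the other 8 Iso-seq libraries. This rule took 2057 of 110996 isoforms, from 1447 genes. Tissue came from adult boars of 12 months, and the 5 glands were testis (Tes), epididymis, vesicular (VG), prostate (PG) and bulbourethral (BG). Iso-seq reads whole cDNA molecules and had 1 library per breed and gland, so 10 in all, with 231413 to 458697 full-length reads each. Short-read RNA-seq had 3 libraries per breed and gland, 30 in all, and gives each transcript a level in transcripts per 1000000 (TPM), which is already scaled for length. The boars had no treatment in the labels, BMI was bred by inbreeding from DSE stock, and neither the epididymal region taken nor the link between the Iso-seq and RNA-seq samples is given in the sources used here. The labels do not say that replicates were separate animals, so the p-values below measure the spread between these samples, which may be technical.

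Sperm leave the testis unable to swim forward or fertilise and mature while they pass through the epididymis, a long coiled duct whose regions, caput, corpus and cauda, each secrete their own mixture of proteins. The epithelium releases lipocalins (LCN genes, carriers of small lipophilic molecules), beta-defensins (DEFB genes, cationic peptides that coat sperm), cystatins and WFDC proteins (protease inhibitors), and places proteins such as ADAM7 on the sperm surface. A gene can carry a gland's character in 2 ways, by being transcribed there alone or by being spliced, started or ended differently there, and full-length reads show the second directly.

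The sequences below come from the Sscrofa11.1 genome and show the introns that set apart the members on which the RNA-seq results turn. Each donor line holds the last 10 bases of the exon and the first 20 of the intron, each acceptor line the last 20 bases of the intron and the first 10 of the next exon, 5′ to 3′ on the gene's strand, and capitals mark the first and last intron bases. None of these introns was in any annotated transcript or non-member isoform of the transcript set. PB.19842.9, a short coding isoform beside PATE2, had new sites at both ends of its intron, and its second such intron is not printed. PATE2 PB.19842.18 and TCEA3 PB.16318.147 had a new donor joined to a known acceptor, LCN12 PB.20896.12 a known donor joined to a new acceptor, and DEFB112 PB.17609.2 a new pairing of known sites. LOC110255899 PB.3567.98 is shown because 6 members shared its intron, and LOC110255455 PB.19841.3 because a member with many reads had intron ends that are not those the spliceosome normally uses.
ENSSSCG00000033649 PB.19842.9 donor, chr9:52925447-52925476, minus strand: atgaatgaggGTgaggcctggtgagggtgc
ENSSSCG00000033649 PB.19842.9 acceptor, chr9:52925299-52925328, minus strand: ttttcttcttctcttcacAGgagacagagt
PATE2 PB.19842.18 donor, chr9:52932990-52933019, minus strand: aaagtccttgGTaaaagggttatttattac
PATE2 PB.19842.18 acceptor, chr9:52932502-52932531, minus strand: cccctttctgtgtttggcAGagccttcagt
TCEA3 PB.16318.147 donor, chr6:81273120-81273149, minus strand: ggatcctctgGTaaagccttctcccagcta
TCEA3 PB.16318.147 acceptor, chr6:81272962-81272991, minus strand: gcagattcatttctctccAGgaaatggcca
LCN12 PB.20896.12 donor, AEMK02000682.1:908002-908031, minus strand: gacctgtcagGTaaggcgctcggctggcct
LCN12 PB.20896.12 acceptor, AEMK02000682.1:907295-907324, minus strand: agacttcctcatccgtccAGattcctgctg
DEFB112 PB.17609.2 donor, chr7:44044336-44044365, minus strand: ccaaaatcgcGTacgtactgacattcctcc
DEFB112 PB.17609.2 acceptor, chr7:44041556-44041585, minus strand: tctttttttttcccctccAGatttaataaa
LOC110255899 PB.3567.98 donor, chr12:19221408-19221437, minus strand: tcggtagcagGTaggcgggcggagagggag
LOC110255899 PB.3567.98 acceptor, chr12:19221191-19221220, minus strand: tgcaaagacgtgttccctAGcatgaagtct
LOC110255455 PB.19841.3 donor, chr9:52897071-52897100, minus strand: actaggaaccATgaggttgcgggttcaatc
LOC110255455 PB.19841.3 acceptor, chr9:52890541-52890570, minus strand: ttaagccactgagtgaggCCagggatcgaa

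Members of FURIN and APBA2 began with exons that overlapped no exon of another transcript, and the 150 bases before those exons are given for that reason. FURIN PB.17721.37, an isoform of the proprotein convertase that cuts secreted precursors, started with an exon of 189 bases at chr7:53456205-53456393 on the plus strand, 3064 bases before the nearest other start of the gene. APBA2 PB.1106.16, from an adaptor that binds the amyloid precursor protein, started with an exon of 420 bases at chr1:144127778-144128197 on the plus strand, and its nearest other start lay 2612 bases upstream. The TATA box motif TATAAA, the CAAT box motif CCAAT, the androgen response element core AGAACA and the GC box motif GGGCGG were searched on both strands, with no overlap between them, and matches are in capitals.
FURIN, chr7:53456055-53456204, plus strand: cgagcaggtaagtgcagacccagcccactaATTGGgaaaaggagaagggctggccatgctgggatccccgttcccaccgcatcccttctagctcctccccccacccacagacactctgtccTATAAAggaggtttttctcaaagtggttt
APBA2, chr1:144127628-144127777, plus strand: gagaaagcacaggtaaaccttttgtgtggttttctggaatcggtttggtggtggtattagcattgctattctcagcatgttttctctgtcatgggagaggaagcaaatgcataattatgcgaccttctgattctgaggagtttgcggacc

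The FURIN window held TATAAA on the same strand, beginning 29 bases before the exon, and CCAAT on the opposite strand. None of the 4 motifs was in the APBA2 window. Among the 150 bases before 85693 transcript starts of the set, 7.01% held TATAAA, 22.1% CCAAT, 7.56% AGAACA and 35.0% GGGCGG, so these letters are a description of the windows.

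Most members had few reads. Of the 2057, 1020 (49.6%) had 2 reads over both epididymis libraries, the fewest the rule admits, and 325 (15.8%) had 3. The median was 3 reads (quartiles 2 to 5), 262 members had at least 10 and 32 had at least 100. Those 32 held 43.2% of the 20829 member reads, which were 2.62% of the BMI epididymis reads and 3.8% of the DSE epididymis reads. The other 8 libraries summed to 2778000 reads, so 0 reads there allows a level of up to 1.08 per 1000000 reads (3 counts) over the 8 together. For any 1 of the glands the floor is higher, as its libraries held fewer reads. In epididymis 2 reads of 690110 are 2.90 per 1000000, with an exact Poisson 95% interval of 0.350 to 10.5. Intervals and floors cover counting error only, since reads of amplified cDNA are not independent molecules.

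Just outside the rule lay 1055 isoforms with exactly 1 read in another gland and reads in both epididymis libraries, 2883 found in the BMI epididymis library alone and 3273 in the DSE epididymis library alone. Asking for at least 2 reads in both libraries left 434 members, at least 5 left 120, and allowing 1 read elsewhere gave 3112. The same rule for the other glands gave 11036 isoforms in testis, 1297 in BG, 805 in VG and 636 in PG.

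Among the members with the most reads were sialyltransferase ST8SIA6 PB.2591.1 with 704 reads in BMI and 3 in DSE, and OVCH2 PB.19368.1, from a secreted serine protease family, with 558 in BMI and 6 in DSE. RNASE10 PB.18043.2, a member of the ribonuclease A family secreted by the epididymis, had 446 and 1, and sulfate transporter SLC13A1 PB.9552.2 had 441 and 3. ADAM7 PB.5719.6 had 224 and 7, phosphate transporter SLC17A2 PB.17377.15 had 215 and 3, and LY6G5B PB.17443.8, of the Ly-6 protein family, had 213 and 4. BPI PB.8975.4, the bactericidal permeability-increasing protein, had 275 and 15. These members were all far higher in the BMI library.

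Another set was higher in the DSE library. EDDM13 PB.16046.4, from an epididymal protein gene, had 2 reads in BMI and 334 in DSE, and ELSPBP1 PB.15854.2, a sperm-binding protein with fibronectin type II domains, had 1 and 307. CST11 PB.8813.5, a cystatin, had 28 and 136. PATE2 PB.19842.19, a small secreted cysteine-rich protein, was close to even at 93 and 108. Of the 142 members with at least 20 reads, 22 had a read rate over 10 times higher in BMI, 23 over 10 times higher in DSE, and 97 lay between. That is 31.7% of these members beyond 10-fold, against 6.73% of 5407 other isoforms with as many epididymis reads and at least 1 in both libraries. With 1 library per breed, breed and library cannot be told apart here.

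**Figure D1:**
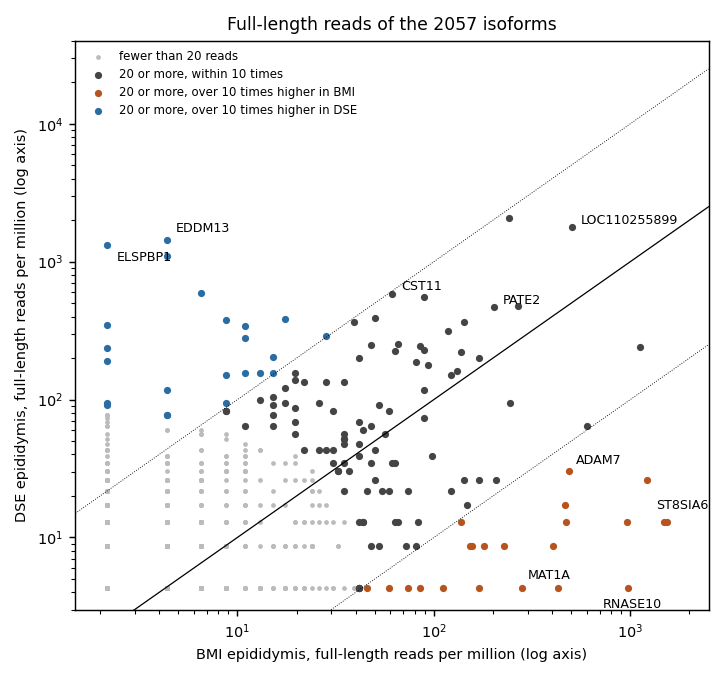
Full-length reads per 1000000 of each member in the BMI epididymis library (horizontal axis) and the DSE epididymis library (vertical axis), both on log scales, 1 point per isoform, coloured where a member with at least 20 reads was over 10 times higher in one library. Many members with the most reads lie far from the diagonal, such as ST8SIA6 with 704 against 3 reads and EDDM13 with 2 against 334.

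By SQANTI3 category, which compares each isoform with the Ensembl annotation, 1066 members (51.8%, Wilson 95% interval 49.7 to 54.0) were not in catalog (NNC), with at least 1 new splice site, against 71.6% of testis-only isoforms and 50.2% of all isoforms. A further 401 (19.5%, 17.8 to 21.3) were in catalog (NIC), new combinations of known sites or introns. Known structures were few: 218 were incomplete splice matches (10.6%) and 61 full splice matches (2.97%, against 6.54% of all isoforms). The rest were 117 intergenic (5.69%, 4.77 to 6.77), 94 antisense (4.57%, 3.75 to 5.56), 76 fusions that span neighbouring genes (3.69%) and 24 genic isoforms (1.17%). The intergenic and antisense shares of all isoforms, 3.71% and 2.95%, lay below those intervals. Isoforms are not replicates, so these shares carry no test.

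The members had fewer exons and shorter reading frames than testis-only isoforms. Their median length was 3004 bases (quartiles 2219 to 4079), near the 2987 of testis-only isoforms, but the median number of exons was 8 against 12 and the median open reading frame 329 against 498 codons. Coding potential was predicted for 1801 (87.6%), against 93.7% of testis-only and 90.8% of all isoforms. Of the coding ones 458 (25.4%, 23.5 to 27.5) were predicted targets of nonsense-mediated decay (NMD), the pathway that destroys mRNAs with early stop codons, against 18% and 22.1%. The intron retention subcategory held 41.5%, against 28.5% and 36.4%.

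Measures of cDNA quality differed between the same sets. All splice sites were canonical in 84.9% of members against 90.8% of testis-only isoforms, a polyA motif was found in 75.9% against 86.0%, and 29% against 14.6% had at least 60% A in the 20 genome bases after the 3′ end, where the primer can bind inside a transcript. The values over all isoforms were 86.3%, 76.5% and 29.8%. Over all 21664 isoforms with reads in both epididymis libraries, members among them, they were 94.3%, 80.2% and 25.7%, and these isoforms were 32.3% NNC with 14.8% NMD among the coding. The 5′ end lay at a known start, by a SQANTI3 column named for CAGE peaks that is read here as overlap with annotated starts, for 58.5% of members, 58.2% of testis-only isoforms, 69.9% of all and 79.3% of those with reads in both epididymis libraries. Among the 434 members with at least 2 reads in both libraries the canonical share was 92.2%, the polyA motif share 81.3% and the A-rich share 24%, and the NNC share was 49.1%. Their part in the category shares was not tested.

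**Figure D2:**
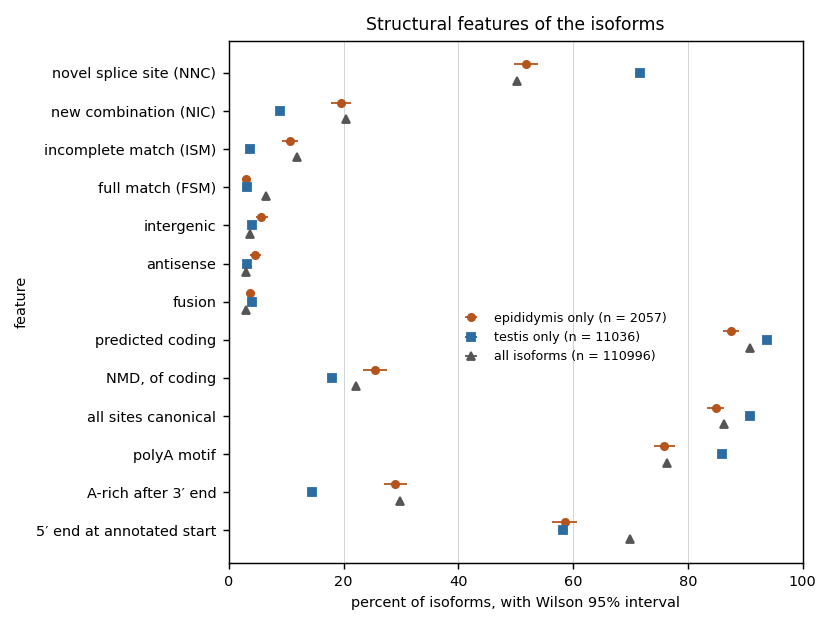
Share of isoforms (percent, horizontal axis) with each structural feature for the epididymis-only isoforms, the testis-only isoforms and all isoforms; bars are Wilson 95% intervals. Epididymis-only isoforms lie within a few points of all isoforms for most features, although several intervals leave out the share of all isoforms. A 5′ end at an annotated start was less frequent (58.5% against 69.9%), as were full matches (2.97% against 6.54%). NNC isoforms were fewer (51.8% against 71.6%) and predicted NMD more frequent (25.4% against 18%) than among testis-only isoforms.

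The merged annotation used for RNA-seq held 1778 members, and 953 of them (53.6%) had at least 1 intron in no other transcript of it, of which 779 had exactly 1. These introns numbered 1251. In 149 (11.9%) both sites were known but newly paired, in 326 (26.1%) only the acceptor was known, in 223 (17.8%) only the donor was known, and in 553 (44.2%) both were new. The usual ends GT and AG were found in 795 (63.5%), against 86.8% of the 316386 other introns, and GC and AG in 4.0% against 4.01%. The intron of LOC110255455 PB.19841.3, printed above, ran from AT to CC. Few of these introns were shared among members: 36 were in 2 or more members, the most being the 6 with the intron of LOC110255899 PB.3567.98. A first exon that overlapped no other transcript was found in 264 members, and such a last exon in 153.

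The genes with the most members are given next. LOC110255463, named beta-galactosidase-1-like protein 2 by RefSeq and lying at chr9:60841483-60888360 on the plus strand, held 65 members with 329 reads in BMI and 648 in DSE. Of these 62 were NNC and 36 were predicted NMD targets. The gene as a whole had 1567 epididymis reads and 5 elsewhere, so few of its 139 isoforms failed the rule by reads in other glands. The rule also needs a read in both epididymis libraries, and 65 isoforms met it. ADAM7, at chr14:8482917-8627085 on the plus strand, held 29 members with 773 and 318 reads, of 9709 gene reads in epididymis and 44 elsewhere.

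The lipocalin cluster on the unplaced scaffold AEMK02000682.1 came next. LCN5, at positions 1038521 to 1041469 on its plus strand, held 21 members with 101 reads in BMI and 583 in DSE, and LCN10 held 13 with 81 and 109. Fusion isoforms that joined LCN8 to LCN5 made 28 more, with 130 and 301 reads. SRD5A2, the steroid reductase that turns testosterone into dihydrotestosterone, held 11 on chromosome 3, with 49 and 33. Whether reads of one lipocalin gene were placed on another was not tested.

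In windows of 1 Mb, members were 64 of the 195 PacBio transcripts of chr9:60000001-61000000 (32.8%), 63 of 231 on the lipocalin scaffold between 1000001 and 2000000 (27.3%), 29 of 102 in chr14:8000001-9000000, the ADAM7 and ADAM28 locus (28.4%), and 24 of 112 in chr9:52000001-53000000, around PATE2 (21.4%). Over all 90535 PacBio transcripts the share was 1.96%. The members shared exons within each gene and were not independent of each other.

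At the other end were genes read mostly in other glands. The 1447 genes fell into classes by the share of a gene's own full-length reads that came from other glands. Genes with no read elsewhere numbered 303 and held 385 members, genes with under 10% elsewhere numbered 63 and held 304 members, and 224 genes with 10% to under 50% held 378. The largest class was 857 genes with 50% or more of their reads in other glands, which held 990 members (48.1%) but 2867 of the 20829 member reads.

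RNA-seq levels were not used by the rule. The TPM table listed 1654 members, left out 124 others and, by its construction, did not list the full and incomplete splice matches, whose levels are given as those of the reference transcript they match. Of the 1654, 526 stayed under 1 TPM in all 30 libraries, 218 were at 0 in all 24 libraries of other glands, and 182 reached 1 TPM in all 6 epididymis libraries. The highest mean level was in epididymis for 1167, in testis for 163, in BG for 137, in PG for 114 and in VG for 73. The members summed to 8760, 24002 and 19897 TPM in BMI epididymis replicates 1 to 3 and to 124192, 6713 and 10736 in DSE replicates 1 to 3. The other 24 libraries summed to between 853 and 2048 TPM, below every epididymis library. Fewer cells of a type and less RNA per cell cannot be told apart in such bulk tissue.

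**Figure D3:**
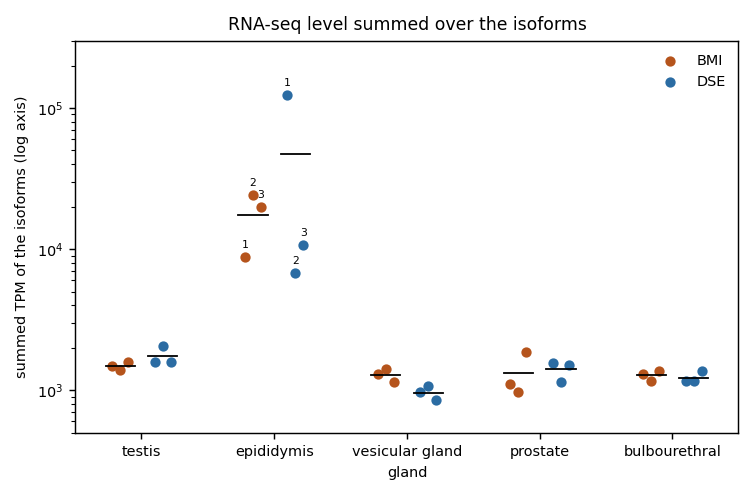
Summed TPM of the members in each of the 30 RNA-seq libraries (log scale), by gland and breed, 1 point per library. The 6 epididymis libraries lie between 6713 and 124192 TPM and the other 24 between 853 and 2048.

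The epididymis libraries differed in makeup before any result is read from them. The 15 epithelial markers, all found, summed to 11138, 75199 and 46513 TPM in BMI replicates 1 to 3 and to 98818, 5334 and 25098 in DSE replicates 1 to 3, against 3.19 to 438 in the other 24 libraries, although CST8, one of them, stayed at or below 1.83 TPM and AQP9 at or below 18.3. The smooth muscle list ran the other way, with 10491, 1772 and 4346 in BMI and 2769, 18155 and 6314 in DSE, and with 65.5 to 3662 elsewhere. The lipocalins LCN8 and LCN9, at 9677 and 3348 TPM, stood high in BMI replicate 2 alone. Spermatid and sperm markers summed to 1.27 to 1045 TPM, with the highest value also in BMI replicate 2, against up to 117599.9 elsewhere. Endothelial markers summed to 36.7 to 513 (23.7 to 131 elsewhere), basal cell markers to 22.2 to 118 with KRT14 not found (0.211 to 223 elsewhere), and immune markers to 14.8 to 142 (4.94 to 85.2 elsewhere). BMI replicate 2 and DSE replicate 1, with the highest epithelial and the lowest smooth muscle sums, stood apart, but their markers were not alike. LCN5 made most of the epithelial sum in every epididymis library except BMI replicate 2, with 85540 TPM in DSE replicate 1 and 15212 in BMI replicate 2. CRISP1 was at 21.3 TPM in DSE replicate 1 against 1100 to 2759 in the other epididymis libraries. ADAM28 was also lowest in DSE replicate 1, at 57.5. In the study's own quality summary, whose values are not used here, DSE replicate 1 also had the lowest transcript integrity of the epididymis libraries. The part of makeup and of RNA quality in the results below was not tested, and values without both libraries are given beside most counts.

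In limma on log2(TPM + 1), 723 members had at least 1 TPM in at least 3 libraries and could be tested, and 931 could not. With a Benjamini-Hochberg adjusted p below 0.05 over all transcripts and a log2 fold change reaching 1, 323 of the 723 were higher in epididymis than in the mean of the other glands, where 9.63% of all 64661 tested transcripts were. Of the 723, 336 passed the filter only through epididymis libraries and so had to be high there. Of the 387 that passed on the other 24 libraries alone, 109 were higher (28.2%) against 8.11% of 58692 transcripts, or 103 (26.6%) against 10.3% without BMI replicate 2 and DSE replicate 1. With no filter, 338 of the 1654 listed members were higher (20.4%) against 4.53%. Without those libraries it was 232 of 580 with the filter against 11.7%, and 271 of 1654 (16.4%) with no filter against 5.36%. No member was called lower (0 of 723, background 4.40%), so none of the 387 was either, and 1 of 580 was without those libraries (4.70%). Members that passed only through epididymis libraries could hardly be called lower, so these backgrounds are not like for like. At an unadjusted p below 0.05 in limma 8 were lower, none by a log2 of 1, and with a pseudocount of 0.1 the tool called 2 lower.

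All 6 epididymis libraries lay above the other 24 for 104 of the 723, against 1.50% of all transcripts. Of the 387 members that passed on the other 24 libraries alone it was 26 (6.72%) against 0.845% of all such transcripts. With the 4 other epididymis libraries alone it was 120 of 580 against 3.03%, and 37 of the 387 (9.56%) against 2.09%. The 387 had a median log2 fold change of 0.54 against 0.01. Over all 723 the median was 0.89, partly fixed by the filter, where that of all tested transcripts was 0.08. Scaling by size factors moved the median of all transcripts to -0.16, with the members at 0.68, and then 267 of 673 were higher against 5.40%. Among all transcripts called in either direction the higher ones were 68.7% without and 46.4% with size factors. At the gene level, where a gene's transcripts were summed, 500 of 1260 tested genes with a member were higher against 15.1% of all genes, or 462 of 1223 against 18.1% without the libraries that stood apart. Genes that passed the filter only through epididymis libraries had to be high there. They were not counted apart, so the filter fixed part of these gene counts and of those in the lists below.

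The share of members higher in epididymis was lowest in the genes read mostly in other glands and highest in those with a few reads elsewhere. With no filter, 96 of 327 (29.4%) were higher in the genes with no read elsewhere, 95 of 223 (42.6%) in those with under 10% elsewhere, 77 of 301 (25.6%) in those with 10% to under 50%, and 70 of 803 (8.72%) in those with 50% or more. Only the last of these came within 2 times the 4.53% of all transcripts. Without BMI replicate 2 and DSE replicate 1 it was 63 (19.3%), 78 (35.0%), 63 (20.9%) and 67 (8.34%) in the same order, against 5.36%. The order is a description, as the classes were made from the reads that chose the members.

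**Figure D4:**
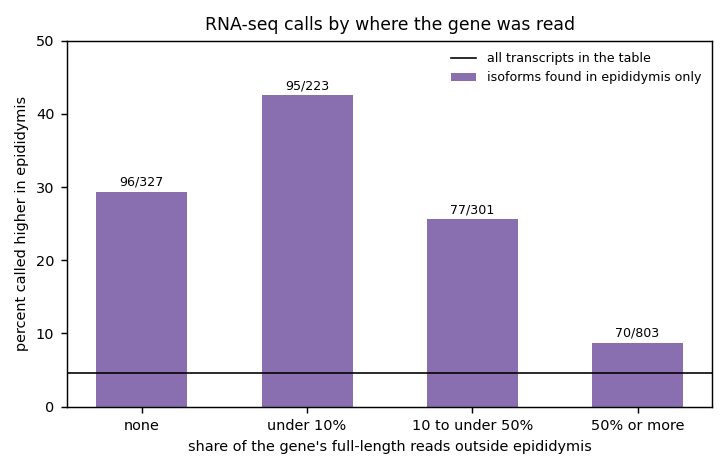
Percent of members in the TPM table called higher in epididymis RNA-seq with no filter (vertical axis), by the share of the gene's full-length reads found in other glands (horizontal axis), with members called and members listed above each bar and a line at the 4.53% of all transcripts. The bars run from 8.72% where 50% or more of the gene's reads were elsewhere to 42.6% where under 10% were.

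**Figure D5:**
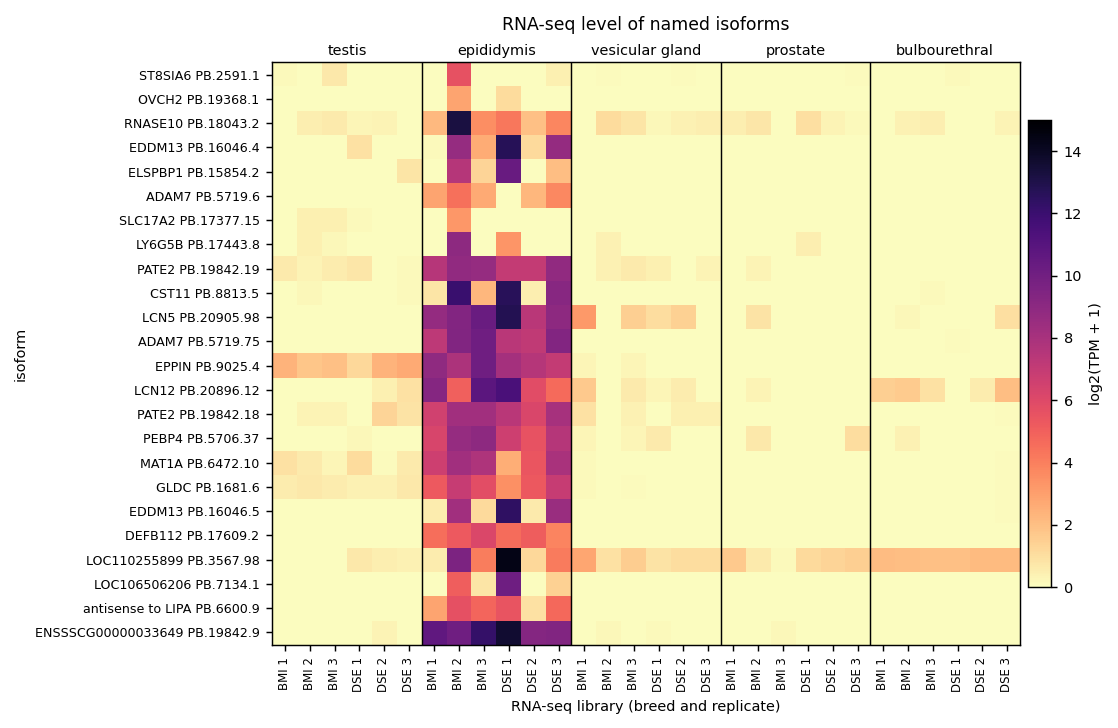
Level, log2(TPM + 1), of the named members (vertical) in the 30 RNA-seq libraries (horizontal, grouped by gland and breed). Both PATE2 members and ADAM7 PB.5719.75 are high in all 6 epididymis libraries, whereas EDDM13, CST11 and LOC110255899 members are high in a few of them.

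The next members are those with the largest changes among members listed in the TPM table whose 6 epididymis libraries all lay above the other 24, with 1 member for each gene that has a symbol. LCN5 PB.20905.98 was at 412, 656 and 1264 TPM in BMI replicates 1 to 3 and at 7136, 163 and 496 in DSE replicates 1 to 3, and at most 8.06 elsewhere. Its log2 fold change was 9.20 (SE 0.47, limma adjusted p = 6.86e-13). ADAM7 PB.5719.75, an isoform with a retained intron from the gene for a sperm surface protein, was at 149, 679.5 and 1044 TPM in BMI and 159.8, 137 and 649 in DSE, with at most 0.0548 elsewhere. It changed by a log2 of 8.40 (SE 0.27, limma adjusted p = 6.28e-17). That the groups of these members did not overlap is how they were chosen and is no finding.

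EPPIN, whose product binds semenogelin on sperm and inhibits proteases, had PB.9025.4, a predicted NMD target with 1 and 6 reads. It was at 467, 229 and 1055 TPM in BMI and 279, 182 and 126 in DSE, and its highest value elsewhere, 5.45, was in testis (log2 fold change 7.70, SE 0.21, limma adjusted p = 5.47e-18). LCN12 PB.20896.12, with the new acceptor printed above, was at 595, 30.8 and 1799.8 TPM in BMI and 2809, 54.8 and 23.8 in DSE, and at most 3.08 elsewhere. Its epididymis libraries spread widely (7.34, SE 0.67, adjusted p = 1.29e-08). PATE2 PB.19842.18, with the new donor, was steadier, at 93.0, 305 and 304 in BMI and 162, 70.6 and 268 in DSE, with at most 1.45 elsewhere (7.23, SE 0.23, adjusted p = 5.56e-17).

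PEBP4 PB.5706.37, from a phosphatidylethanolamine-binding protein gene, had 1 read in each Iso-seq library but 75.5, 393 and 484 TPM in BMI and 97.5, 45.2 and 183 in DSE, with at most 1.08 elsewhere. Salmon divides short reads among isoforms of one gene that share exons, so this level rests on its model. Metabolic enzymes were present too. MAT1A PB.6472.10, from the enzyme that makes S-adenosylmethionine, was at 99.0, 301 and 214 TPM in BMI and 4.90, 42.3 and 246 in DSE, and at most 1.14 elsewhere (6.27, SE 0.39, limma adjusted p = 2.33e-11). GLDC PB.1681.6, the glycine decarboxylase of the mitochondrial glycine cleavage system, was at 36.9, 116 and 53.7 in BMI and 10.1, 39.0 and 119 in DSE (5.45, SE 0.27, adjusted p = 2.91e-13). Both were lowest in DSE replicate 1, where the summed TPM of the members was highest.

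DEFB112 PB.17609.2, a beta-defensin isoform with the new exon pairing, had the smallest SE of these members. It was at 22.6, 36.4 and 68.8 TPM in BMI and 23.3, 34.5 and 13.2 in DSE, and was listed at 0 in all 24 other libraries (4.92, SE 0.15, limma adjusted p = 4.90e-17). Leaving out BMI replicate 2 and DSE replicate 1 gave the same 4.92. Beta-defensin genes are similar in sequence, so small shares of one may be reads of another.

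Members with many full-length reads were less even across the RNA-seq libraries. RNASE10, as its reference transcript, was at 3.55, 9363 and 10.5 TPM in BMI and 17.7, 2.97 and 13.0 in DSE, so BMI replicate 2 stood far above the rest. Elsewhere it reached at most 1.16, and it changed by a log2 of 4.47 (SE 0.84, limma adjusted p = 1.79e-04), or 2.52 without the libraries that stood apart. EDDM13 PB.16046.4 was at 0.123, 391 and 5.13 in BMI and 6619, 1.23 and 418 in DSE, and overlapped the other glands, whose highest value was 0.881 (5.62, SE 0.99, adjusted p = 8.71e-05, or 3.12 without those libraries). EDDM13 PB.16046.5 had the same shape, at 0.500, 305 and 1.22 in BMI and 5466, 0.549 and 367 in DSE (5.26, SE 0.99, adjusted p = 1.99e-04), and too few libraries reached 1 TPM to test it without them. CST11, as its reference transcript, followed at 0.736, 4194 and 3.70 in BMI and 6288, 0.409 and 586 in DSE (6.21, SE 1.18, adjusted p = 2.08e-04), and was likewise not testable without the libraries that stood apart.

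ELSPBP1, as its reference transcript, was at 0, 184 and 1.50 in BMI and 1288, 0 and 3.08 in DSE (3.50, SE 0.92, limma adjusted p = 4.11e-03), and could not be tested without those libraries either. LY6G5B was at 486 TPM in BMI replicate 2, at 8.99 in DSE replicate 1 and at 0 in the other epididymis libraries. ST8SIA6, with the most reads of any member, was at 47.7 in BMI replicate 2 and at most 0.353 in the other epididymis libraries, and it was not tested. These genes were thus detected mainly in the libraries that stood apart. OVCH2 PB.19368.1 reached 6.10 in BMI replicate 2 and 1.09 in DSE replicate 1, and SLC17A2 PB.17377.15 reached 8.57 in BMI replicate 2, with 0 in the other epididymis libraries.

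PATE2 PB.19842.19 was the most even of the named members with most reads that had RNA-seq levels, which SLC13A1 PB.9552.2 and BPI PB.8975.4 lacked. Its reference transcript was at 178, 453 and 403 TPM in BMI and 125, 125 and 446 in DSE, with at most 0.634 elsewhere. It changed by a log2 of 7.76 (SE 0.20, limma adjusted p = 1.91e-18), and by 7.79 without the libraries that stood apart. ADAM7 PB.5719.6 was lower and absent from DSE replicate 1, at 6.28, 21.4 and 5.28 in BMI and 0, 3.71 and 12.0 in DSE, and listed at 0 in all other libraries (2.66, SE 0.29, adjusted p = 2.09e-07). Its log2 fold change was 2.86 without the libraries that stood apart.

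The epididymis library with a member's highest TPM was most often DSE replicate 1 or BMI replicate 2. Of 1050 members with at least 1 TPM in an epididymis library, 430 (41.0%) were highest in DSE replicate 1, where 18.9% of all transcripts were, and 228 (21.7%) in BMI replicate 2, against 17.0%. Of the members over 10 times higher in the BMI Iso-seq library, 19 had TPM values, and 14 of these were highest in BMI replicate 2, 4 in DSE replicate 1 and 1 in DSE replicate 3. Of the 19 skewed to DSE with TPM values, 14 were highest in DSE replicate 1, 3 in BMI replicate 2 and 2 in BMI replicate 3. These counts are over members chosen by their reads and carry no test.

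Some further members were chosen after their values were seen. PB.19842.9, whose gene ENSSSCG00000033649 has no symbol, lies at chr9:52924285-52925670 on the minus strand beside PATE2. It had 30 and 59 reads and was at 1587, 1063 and 4839.9 TPM in BMI and 12746, 633 and 669.9 in DSE, with at most 0.251 elsewhere. This was a log2 of 10.84 (SE 0.37, limma adjusted p = 2.75e-16), with no overlap. LOC106506206 PB.7134.1, a beta-defensin 105-like gene by RefSeq, had 111 and 476 reads and 1095 TPM in DSE replicate 1, 32.4 in BMI replicate 2 and at most 1.67 in the other epididymis libraries (2.89, SE 0.83, adjusted p = 7.66e-03). Without the libraries that stood apart, too few libraries reached 1 TPM to test this member. LOC110255899 PB.3567.98, at chr12:19220569-19223671 on the minus strand, had 231 and 412 reads and was at 0.477, 769 and 16 in BMI and 21417, 1.25 and 16.4 in DSE, against at most 5.95 elsewhere. Its log2 fold change of 4.47 (SE 1.13, adjusted p = 3.08e-03) was 1.31 without the libraries that stood apart.

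An antisense member was among those with the most reads. PB.6600.9 lies opposite LIPA, the lysosomal acid lipase gene, at chr14:101127502-101134223 on the plus strand, and had 512 and 56 full-length reads. It was at 6.16, 49.1 and 27.5 TPM in BMI and 43.4, 0.849 and 25 in DSE, and at 0 in all other libraries (4.06, SE 0.39, limma adjusted p = 2.69e-08). Whether the RNA-seq counting used strand is not given in the sources used here, so short reads of LIPA and of its antisense transcript cannot be told apart. LOC110255455 PB.19841.3 had 682 and 3 full-length reads but at most 3.19 TPM.

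The lists of epididymal gene groups, chosen with earlier results of these data known and so not independent evidence of direction, gave the following. Of the secreted epididymal proteins 59 of 66 symbols were found, and 21 genes held 91 members with 3282 reads. Of 42 tested members 39 were higher and 0 lower (background 9.63% and 4.40%), with a median log2 fold change of 3.13. The filter fixed part of this, since 7 of the 42 passed it on the other 24 libraries alone, and all 7 of those were higher. Without BMI replicate 2 and DSE replicate 1, 24 of 25 tested members were higher, with a median of 3.66, and the rest no longer passed the filter. The exception was CLU PB.5729.35, at a log2 of 2.56 with all libraries and 0.45 without those (limma adjusted p = 0.43). By gene totals 46 of 54 tested genes of the list were higher and 2 lower, where 15.1% of all tested genes were higher and 6.56% lower. Without those libraries it was 42 of 51 higher and 4 lower, against 18.1% and 7.02%. OVCH2 held 4 members with 806 reads, and GPX5, the selenium-independent peroxidase that protects sperm from oxidation, held 4 with 99. DEFB113 held 1 member with 106 reads, PB.17606.3, EPPIN 4 with 37, and CLU, the secreted chaperone clusterin, 9 with 92 reads of 10776 in epididymis.

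Of the ADAM proteins 4 genes held 36 members, 29 of them of ADAM7. Of 11 tested members 10 were higher (background 9.63%), all of them ADAM7 and none of them passing the filter on the other glands alone. The gene totals were higher for 3 of 11 genes (background 15.1%) and lower for 2 (6.56%). Without BMI replicate 2 and DSE replicate 1 it was 10 of 11 members and 5 of 11 genes higher, and 2 genes lower. ADAM28, a neighbour of ADAM7, held 5 members with 20 reads although the gene had 5802 reads in epididymis, and none of the 5 was tested. ADAM15 held 1 tested member that did not pass, at a log2 of 0.40.

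Among initial segment genes and transcription factors, 9 genes held 31 members with 153 reads, and 7 of 9 tested members were higher (background 9.63%), or 1 of the 2 that passed the filter on the other glands alone (8.11%). SRD5A2 had 2 of 2 tested members higher, the largest at a log2 of 2.86. GGT1, the gamma-glutamyltransferase of glutathione breakdown, had 3 of 3, the largest at 3.98, and PAX2, a factor of Wolffian duct development, had 2 of 2, the largest at 3.71. ROS1, the receptor kinase needed for the initial segment, and HOXD8 held 2 and 4 members, none of them tested. By gene totals 15 of 35 tested genes of this list were higher (background 15.1%) and 8 lower (6.56%). Without BMI replicate 2 and DSE replicate 1 it was 5 of 7 members, and 16 of 34 genes higher and 8 lower. Among luminal ion and water transport genes 2 held 1 member each, of which that of the carnitine transporter SLC22A5 was higher (log2 1.30) and that of SLC26A6 was not called (0.32), where 9.63% of all transcripts were higher. By gene totals 7 of 29 were higher (background 15.1%) and 4 lower (6.56%), or 9 and 4 without those libraries, where the SLC22A5 member no longer passed the filter and that of SLC26A6 was not called (0.51).

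A change in the share of the gene's TPM, which separates isoform choice from gene level, was called for 15 of 352 testable members, where 3.65% of all tested transcripts were called in either direction. Of the 352, 14 were called up against a background of 1.78%, and 1 down against 1.87%. Without BMI replicate 2 and DSE replicate 1 it was 13 of 329 in either direction against 2.81%. The clearest case was TCEA3, a transcription elongation factor active in muscle. PB.16318.147 took 19.97%, 22.1% and 28.9% of the gene's TPM in BMI and 49.4%, 23.4% and 29.1% in DSE, where the median elsewhere was 0% and the highest 7.70%. Its groups did not overlap (difference in share 0.28, SE 0.02, limma adjusted p = 2.79e-08).

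FLYWCH1 PB.11944.193, from a zinc finger protein gene, took 16.9% to 34.9% in epididymis and at most 18.3% elsewhere (0.22, limma adjusted p = 3.78e-06). ZNF613 PB.15978.7 took 4.60% to 44.3% and at most 8.82% elsewhere (0.22, adjusted p = 1.21e-04). PKIG, an inhibitor of protein kinase A, had PB.9000.48 at 1.72% to 37.4% against at most 3.90% (0.18, adjusted p = 1.41e-03). BCAS3 PB.3685.280 took 60.1% to 88.9% against a median of 48.7% and a highest of 72.6% elsewhere (0.23, adjusted p = 2.81e-03). All 4 overlapped the other glands in at least 1 library, and PKIG was not called without replicate 1 (0.19) or 3 (0.17) of every group, nor BCAS3 without replicate 3 (0.24).

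FURIN PB.17721.37, with the start window printed above, split the epididymis libraries. It took 0.790%, 49.0% and 1.51% of the gene's TPM in BMI and 5.75%, 0% and 44.2% in DSE, against at most 0.361% elsewhere, or 0.340, 80.2 and 0.711 TPM in BMI and 17.9, 0 and 63.2 in DSE. The difference in share was 0.17 (SE 0.05, limma adjusted p = 4.62e-02), a call that was lost with no minimum on the share. High shares were thus found in BMI replicate 2 and DSE replicate 3 alone, while the 12 and 22 full-length reads were in both breeds. APBA2 PB.1106.16, the other member with a printed start, was chosen after its values were seen. It was at 3.24, 12.7 and 6.62 TPM in BMI and 6.63, 1.39 and 4.40 in DSE and listed at 0 in all 24 other libraries (log2 fold change 2.57, SE 0.18, adjusted p = 1.02e-10).

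LOC100736666, in the PATE2 window of chromosome 9, had members whose shares moved in opposite directions, also chosen after their values were seen. The gene summed to 158 to 6566 TPM in the epididymis libraries and to at most 16.2 elsewhere, so a lower share does not mean a lower level. PB.19842.37 took 55.8% to 97.8% of the gene's TPM in epididymis against a median of 0% elsewhere (0.71, limma adjusted p = 1.85e-05), and was at 524, 196 and 2572 TPM in BMI and 6131, 149 and 122 in DSE. PB.19842.36 took 1.38% to 6.01% against a median of 33.3% (-0.33, adjusted p = 2.29e-03). The second was the 1 member whose share was lower.

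Between the breeds, limma with all 30 libraries called 19 of 723 members, 11 higher in DSE epididymis and 8 higher in BMI epididymis, against 0.707% of all transcripts (0.354% and 0.353%). With the 6 epididymis libraries alone it called 0 of 723 and 25 of all transcripts (0.0387%), with 33 members (4.56%) and 3.88% of all transcripts at an unadjusted p below 0.05. Without BMI replicate 2 and DSE replicate 1 it called 34, against 0.953%. Leaving out single libraries gave 40 without DSE replicate 2 (0.904% of all transcripts), 36 without DSE replicate 3 (1.50%) and 33 without BMI replicate 1 (0.934%), and leaving out a replicate of every group gave 29 without replicate 2 (0.958%) and 9 without replicate 3 (0.492%). MYH6 PB.18011.1, from the cardiac alpha myosin heavy chain gene, was at 0 TPM in all 3 BMI libraries and at 2.16, 10.7 and 4.41 in DSE (log2 difference DSE minus BMI 2.55, SE 0.37, limma adjusted p = 4.13e-04), although the BMI Iso-seq library held 16 reads of it and the DSE library 5. CAP2 PB.17273.12, from an actin-regulating gene, was at 0, 0 and 1.79 in BMI and 4.73, 14.7 and 4.42 in DSE (2.48, SE 0.45, adjusted p = 5.13e-03), and was not called without replicate 2 of every group (1.74). Both were highest in DSE replicate 2, the library with the highest smooth muscle sum, 18155 TPM, and its part was not tested.

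Higher in BMI were DEFB112 PB.17609.7, at 34.3, 49.0 and 49.5 TPM in BMI and 16.2, 18.8 and 9.61 in DSE (-1.54, SE 0.18, limma adjusted p = 3.02e-05), and KCND1 PB.21268.21, from a voltage-gated potassium channel gene, at 20.6, 33.9 and 62.5 in BMI and 13.4, 13.4 and 18.4 in DSE (-1.19, SE 0.26, adjusted p = 2.72e-02). In both the breeds did not overlap. The spread behind each SE was shared over all 30 libraries. DEFB112 PB.17609.7 was at 0 in all 24 libraries of other glands, and KCND1 PB.21268.21 in 19 of them. Their SE and p-values thus understate the spread among the 6 epididymis libraries compared, which alone gave 0 breed calls. DEFB112 PB.17609.7 was not called without replicate 3 of every group (-1.19), nor KCND1 PB.21268.21 without BMI replicate 3 (-0.79) or without any of BMI replicate 2, DSE replicate 1 and DSE replicate 2. The difference between epididymis and the other glands itself differed between breeds for 8 of 723 members, 3 larger in BMI and 5 larger in DSE, against 0.212% of all transcripts.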

How the data were processed

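Iso-seq full-length reads per isoform were deposited as counts, from IsoSeq3 clusters aligned to Sscrofa11.1, collapsed and classified by SQANTI3 against Ensembl 107. The percent of A in the 20 genome bases after the 3′ end was deposited as SQANTI3 gave it. RNA-seq levels were deposited as TPM, made by the authors with Salmon 1.9.0 after STAR 2.7.10a alignment, on a merged annotation of Ensembl transcripts and Iso-seq isoforms other than full and incomplete splice matches. The labels name rRNA depletion for these libraries and the study's methods poly-T beads. TPM keep no depth, so none was computed for RNA-seq, and the read totals and RNA integrity measures that the study gives were not used.

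Members were taken by the read rule. Transcripts that reached 1 TPM in 3 or more of the 30 libraries were tested on log2(TPM + 1) in limma 3.58.1 (R 4.3.3) with a mean for each of the 10 groups of breed and gland, epididymis against the mean of the other 8 groups, and Benjamini-Hochberg adjustment over all tested. Each transcript had 1 spread shared by all 10 groups, so groups at 0 lower its SE. Fold changes on this scale understate those of low transcripts. Shares of a gene's summed TPM were tested in the same way for genes that reached 1 TPM in every library and transcripts whose share reached 0.05 in 3 or more libraries, called at a difference of 0.1 or more. The procedures were tested on simulated data. Gene names came from Ensembl and, by exact intron match, RefSeq. Members and gene lists were chosen with earlier results of these data known. Named members were the 12 with the most reads, 1 per gene with a symbol other than a LOC number, then, among members listed in the TPM table and again 1 per such gene, up to 10 with the largest fold change whose epididymis libraries all lay above the others, up to 6 with the largest change in share and up to 2 in each direction between breeds, then up to 3 called lower (none), the 6 genes with the most members and list members. Members outside this rule are said to be chosen after their values were seen. Alternatives were another pseudocount, no filter, size factors, a replicate block, stricter read rules and leaving out each replicate, with added ones without 2 libraries, with and without the filter. Small RNA libraries were not used. In 33 members the deposited total of reads differed from the sum over libraries, and the sum was used.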

Additional observations from a re-analysis of the deposited data

Results flagged for a closer look

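Of 40 named members examined over the 6 epididymis libraries, 7 had a library far from the rest, where the gap to the nearest library divided by the range of log2(TPM + 1) passed Dixon's 95% critical value. Chance alone sets about 1 in 20 such groups apart. Some of these members were named for reads that lay mostly in 1 library or after their values were seen, so the count cannot be read against that rate. In 5 of the 7 it was BMI epididymis replicate 2, with a ratio of 0.922 for ST8SIA6 PB.2591.1, 0.8 for RNASE10 PB.18043.2, 1 for SLC17A2 PB.17377.15, 0.628 for LY6G5B PB.17443.8 and 0.716 for LOC110255455 PB.19841.3. In the other 2 it was DSE epididymis replicate 1, with 0.799 for CLU PB.5729.50 and 0.736 for TNS3 PB.9763.23. CLU PB.5729.50 was at 53.2 TPM in that library and at most 1.23 in the other epididymis libraries, and TNS3 PB.9763.23 was at 4.38 and at most 0.560.

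The difference between epididymis and the other glands differed between breeds, by limma's interaction term, for 8 members. As BMI minus DSE on the log2 scale the difference was -2.5 for MYH6 PB.18011.1, -2.85 for CAP2 PB.17273.12, -2.23 for ADCY3 PB.12649.7, -2.62 for FHIT PB.4492.23 and -2.21 for novelGene_2502 PB.13351.4, all larger in DSE. It was 1.54 for DEFB112 PB.17609.7, 1.15 for GGT1 PB.6125.17 and 1.04 for ABCB5 PB.20091.43, larger in BMI. DEFB112 PB.17609.7 was at 0 in all 24 other libraries, so its value is the breed difference in epididymis with the sign turned and no separate result. Only 1 of the 8 was called under every alternative. The GGT1 call, for example, was lost on leaving out any of BMI replicates 1 to 3 or DSE replicates 1 and 2 (0.81 without DSE replicate 2).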

How the results depend on the processing

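The count of members higher in epididymis, 323, was 232 to 422 under the alternatives run with the read rule as given, and the gene count, 500, was 361 to 574, each within 1.5 times its value. With at least 2 reads in both libraries 122 of 158 tested members were higher, 6 differed between breeds, 3 had an interaction and 6 a change in share. The rule itself gave 434 members at 2 reads in both, 120 at 5 and 3112 with 1 read allowed elsewhere. At 2 reads in both the shares were 49.1% NNC, 16.6% NIC, 6.22% full splice match, 85.3% coding, 21.6% NMD among coding, 92.2% canonical, 81.3% with a polyA motif, 24% A-rich and 38.2% intron retention. Members lower numbered 2 with a pseudocount of 0.1, 0 to 1 on leaving out a replicate and 1 without BMI replicate 2 and DSE replicate 1. Breed calls, 19, were 12 with that pseudocount, 12 with size factors, 0 with the epididymis libraries only, 9 to 40 on leaving out a replicate and 34 without the 2 libraries. Interaction calls, 8, were 5 with the pseudocount, 21 with no filter, 4 to 28 on leaving out a replicate and 22 without the 2 libraries. Share calls, 15, were 7 with at least 5 TPM per gene in every library and 7 to 19 on leaving out a replicate. Shares over all transcripts are not given for most of these settings, so the counts do not show whether a change was particular to the members. The cause of these changes was not tested. The setting without the 2 libraries was chosen after seeing the data. Among named members no recomputed value reversed. Of 35 log2 fold changes recomputed 529 times 3 values, all of MYH6, missed the threshold. For 8 share differences it was 6 of 116, for 4 breed differences 18 of 60 with none called under every alternative, and for 8 interactions 23 of 104 with 1 called throughout.

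Replicates of the same number correlated across glands with a median r of 0.06 (-0.33 to 0.44) against -0.02 for different numbers, and the same numbers of BMI and DSE epididymis with r of -0.36 to -0.17. Of the 6 epididymis libraries 5 lay closer to their own number, a hint from the data that the labels do not state, so the numbers were not taken as pairs. A replicate block gave 323 members higher, 0 lower, 500 genes higher, 18 breed calls, 9 interaction calls and 13 share calls, of which FURIN was no longer one, and a block within breed gave 501 genes higher. Depth limits the rule at 2 and 3 reads, where the interval of the level reaches below the pooled floor of the other libraries. From 4 reads on the interval lay above that floor, for 712 of the 2057 members.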
